A study of Mus musculus with 8 samples.

Results

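The enzymes described here are 8 folate enzymes of the mouse liver, chosen by symbol from the pathway: Shmt1, Shmt2, Mthfd1, Mthfd1l, Mthfs, Aldh1l1, Ftcd and Fpgs. All 8 are among the 24079 symbols listed in both assays. Male C57BL/6 mice ate a diet that drew 45% of its energy from fat, from week 8 until sampling at post-natal week 25 by the sample labels, whereas the treatment protocol deposited with them gives 25 weeks as the length of the diet. The HF group received this diet alone, and the HB group also drank water holding 2% (w/v) betaine, so that both groups share the strain, the sex, the age and the diet. Liver mRNA was measured by RNA-seq of polyadenylated RNA, and mRNA under translation by Ribo-seq, which sequences the ribosome-protected fragments (RPFs) left after RNase digestion. Each assay had 2 libraries per group, called HF1, HF2, HB1 and HB2. The study's methods name 2 mice per group that were closest to the mean body weight, whereas the labels speak of pooled preparations, so p-values measure the spread between these libraries, which may be technical.

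Folate carries single carbon units between amino acids and nucleotides. Serine is the main donor: serine hydroxymethyltransferase passes its side-chain carbon to tetrahydrofolate and releases glycine, in the cytosol through Shmt1 and in mitochondria through Shmt2. Mthfd1 in the cytosol interconverts the methylene, methenyl and formyl forms, and Mthfd1l in mitochondria releases the carbon as formate. Mthfs returns a stored formyl form to use, Aldh1l1 burns formyl groups to carbon dioxide, Ftcd takes up the formimino group left by histidine breakdown, and Fpgs adds the glutamate tail that keeps folates inside the cell. Betaine enters the same network because it donates a methyl group to homocysteine, as methyltetrahydrofolate does.

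Values are RPKM, reads scaled by the length of the gene and the total of the library. The RNA-seq libraries held 11661207, 11824128, 22543471 and 18082686 reads in HF1, HF2, HB1 and HB2, and the Ribo-seq libraries held 387980, 1056546, 257086 and 141890. The largest RNA-seq library was thus 1.93 times the smallest, and the largest Ribo-seq library 7.45 times the smallest, with the shallowest in HB. All 6 hepatocyte markers were present, with a summed mRNA level of 42867 to 43895 RPKM in HF and 46180 to 47718 RPKM in HB.

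At the mRNA level the cytosolic serine enzyme Shmt1 and the multifunctional Mthfd1 rose with betaine, and Ftcd and the glutamate-adding Fpgs fell, at a Benjamini-Hochberg adjusted p under 0.05 in limma. Shmt1 and Fpgs differed by more than 1 on the log2(RPKM + 1) scale, and Mthfd1 and Ftcd by 0.82. The mitochondrial Shmt2, and the cytosolic Mthfs and Aldh1l1, did not pass. Mthfd1l, at a mean of under 1 RPKM, lay under the filter of the test. These 4 of 7 tested members stand beside 27% of all 10687 genes tested, with 2 members higher in HB beside 7.92% of all genes and 2 lower beside 19.1%.

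The call rule of the study is stricter for mRNA, a log2 difference beyond 1 with an unadjusted p under 0.001. None of the 7 members met it in limma, beside 8.86% of all genes, while 4 of the 7 had an unadjusted p under 0.05, beside 40.5% of all genes. Without HB2 both Shmt1 (1.63) and Fpgs (-1.69) met it, and without HF2 Fpgs did (-1.56), each with a lone library left in its group that is assumed to vary like the rest. With the same fold and an adjusted p under 0.05, Shmt1 and Fpgs passed, beside 17.7% of all genes. The groups did not overlap for 3 members that were higher in HB (Shmt1, Mthfd1 and Mthfs), beside 24.8% of all genes, and for 2 that were lower (Ftcd and Fpgs), beside 43.3%. The median log2 difference over the 7 members was 0.31, and over all tested genes -0.19. The members' median was 0.067 without HF2, and 0.59 at a common median, where that of all genes was 0.08. In a bulk liver sample fewer cells of a type and less RNA per cell cannot be told apart.

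**Figure D1:**
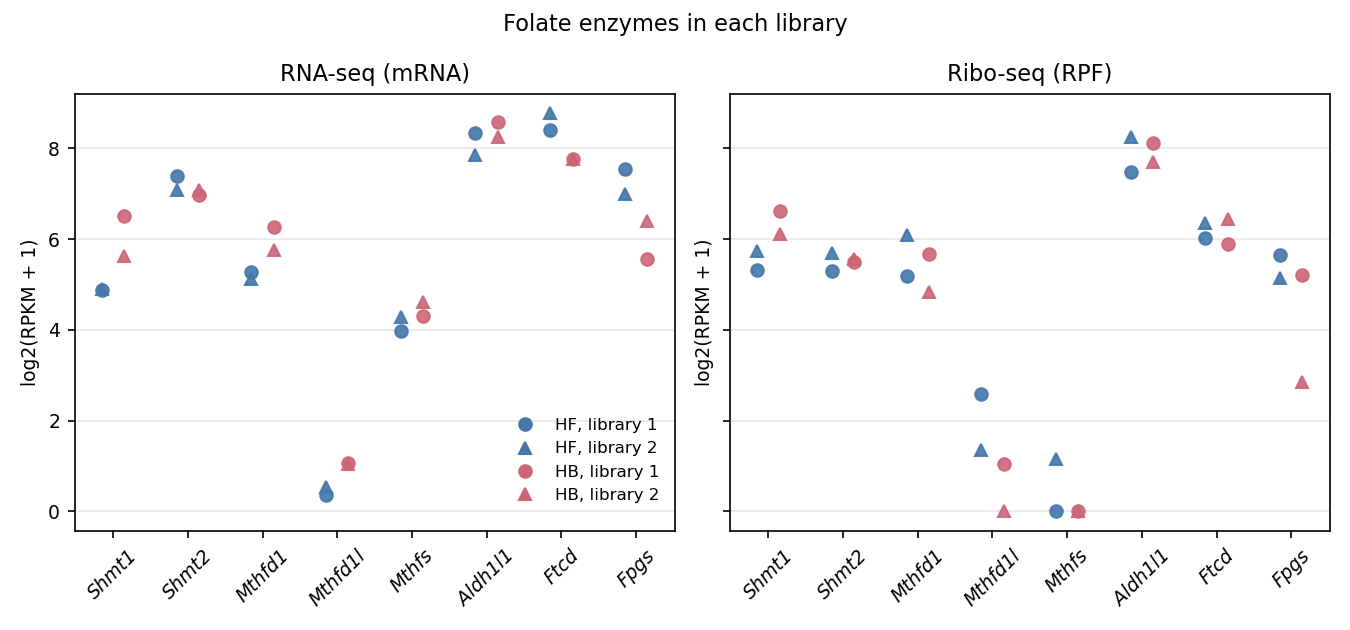
Level of each folate enzyme in each library, as log2(RPKM + 1), for RNA-seq (left) and Ribo-seq (right). Blue marks HF and red HB, circles are library 1 and triangles library 2. In RNA-seq both red marks lie above both blue marks for Shmt1 and Mthfd1 and below them for Ftcd and Fpgs. Mthfd1l and Mthfs are the lowest members in Ribo-seq.

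Shmt1 lies on the minus strand at chr11:60788104-60811718 (GRCm38, GENCODE M21). Its mRNA level was 28.4 RPKM in HF1, 29.0 in HF2, 90.9 in HB1 and 48.2 in HB2. Both HB libraries were above both HF libraries, and HB1 was the highest by far. The group means were 28.7 ± 0.42 and 69.5 ± 30.2 RPKM (SD, n = 2), and the log2 difference was 1.18 ± 0.32 (SE), with a 95% interval of 0.47 to 1.89 and a limma adjusted p of 0.0241. The call was lost without HF1 (1.17, adjusted p = 0.0605), without HB1 (0.73, adjusted p = 0.0536) and without a filter (adjusted p = 0.0889). The adjusted p ran from 0.00109 to 0.0889 over 14 alternatives in limma, in which the difference stayed positive.

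Shmt2, the mitochondrial counterpart, lies on the minus strand at chr10:127517123-127522444. It had 167 and 135 RPKM in HF1 and HF2, and 124 and 135 RPKM in HB1 and HB2. The groups overlapped, with HF1 the only library that stood somewhat higher. The log2 difference was -0.21 ± 0.26 with a 95% interval of -0.79 to 0.37, and the limma adjusted p was 0.573. Shmt2 mRNA was above Shmt1 mRNA in every library.

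The ratio of Shmt1 to Shmt2 brings both isozymes together within a library, where the scaling of the library cancels. In mRNA it was 0.170 in HF1, 0.215 in HF2, 0.733 in HB1 and 0.357 in HB2. Both HB ratios were above both HF ratios, and their mean was 2.83 times the HF mean. In footprints the ratio was 1.01 in HF1, 1.03 in HF2, 2.22 in HB1 and 1.48 in HB2, again without overlap. The counting intervals (95%) of the footprint ratio were 0.603 to 1.70 and 0.793 to 1.34 in HF and 1.36 to 3.71 and 0.721 to 3.11 in HB. These intervals cover counting error within a library and not the spread between libraries. With 2 libraries against 2, an exact permutation test cannot go below p = 0.333.

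**Figure D2:**
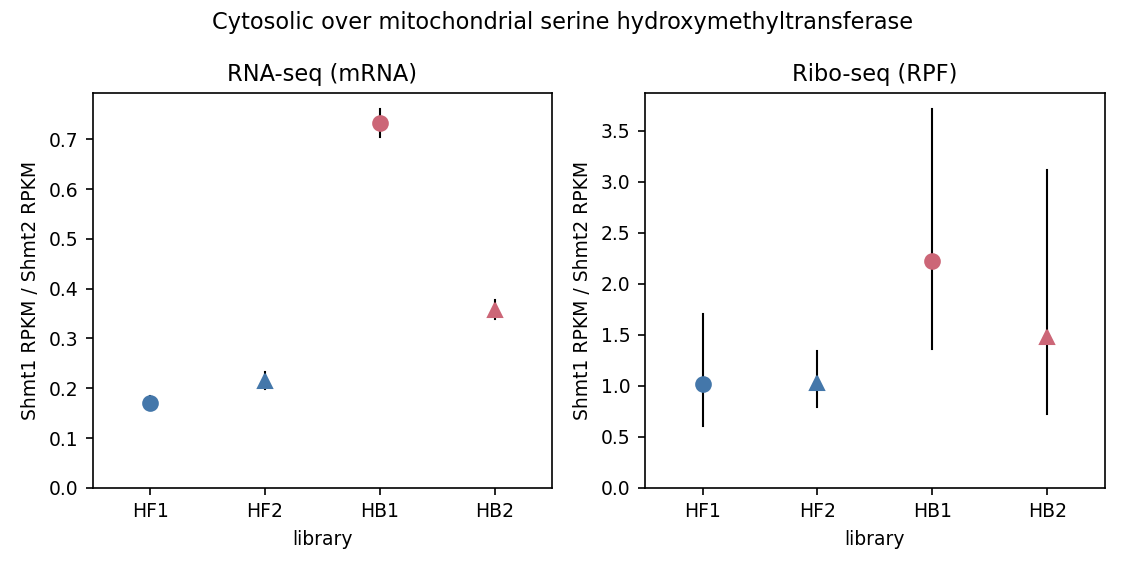
Ratio of Shmt1 RPKM to Shmt2 RPKM in each library, in RNA-seq (left) and Ribo-seq (right). Bars are 95% intervals for counting error only. The ratio runs from 0.170 to 0.733 in mRNA and from 1.01 to 2.22 in footprints, with HB above HF in both assays.

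Mthfd1 lies on the plus strand at chr12:76255298-76319803. Its mRNA level was 37.6 RPKM in HF1, 34.0 in HF2, 75.7 in HB1 and 53.6 in HB2. As for Shmt1, both HB libraries were higher and HB1 was the highest. The means were 35.8 ± 2.51 and 64.7 ± 15.6 RPKM (SD, n = 2), and the log2 difference was 0.82 ± 0.27 with a 95% interval of 0.22 to 1.42 and a limma adjusted p of 0.0479. This call lies at the threshold. It was lost without HF1 (adjusted p = 0.181), HF2 (0.241) or HB1 (0.113), at a common sum (0.0697), with protein-coding reads (0.0536), with voom (0.0520) and without a filter (0.0937), and the adjusted p ran from 0.00829 to 0.241 over 14 alternatives in limma.

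The low mitochondrial formate enzyme Mthfd1l (chr10:3973118-4167081, plus strand) had 0.275, 0.452, 1.09 and 1.06 RPKM of mRNA in HF1, HF2, HB1 and HB2. These values rest on 12, 20, 92 and 72 reads. Both HB libraries were above both HF libraries, with an HB mean 2.96 times the HF mean, and this level lies under the filter of the test. Without the filter it did not meet the rule of the study in mRNA.

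Mthfs (chr9:89210676-89377713, plus strand) had 14.7 and 18.6 RPKM of mRNA in HF1 and HF2, and 18.9 and 23.7 RPKM in HB1 and HB2. HB was above HF by a narrow gap, and the log2 difference of 0.33 ± 0.26 had a limma adjusted p of 0.360. A near-identical gene, Mthfsl (chr9:88688602-88720296, minus strand), differs from Mthfs at 3 of 609 coding bases, so reads can be split between them. Mthfsl, named here after its values were seen, had 39.4 and 34.5 RPKM in HF and 40.1 and 63.9 RPKM in HB.

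Aldh1l1 (chr6:90486427-90600203, plus strand) was among the most abundant members, with 325 and 231 RPKM of mRNA in HF1 and HF2 and 381 and 304 RPKM in HB1 and HB2. The groups overlapped, with HF2 the lowest library. The log2 difference was 0.31 ± 0.29, with a 95% interval of -0.34 to 0.96 and a limma adjusted p of 0.445. It ran from 0.067 without HF2 to 0.56 without HF1.

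Ftcd lies on the plus strand at chr10:76575648-76590338. Its mRNA level was 337 RPKM in HF1, 437 in HF2, 216 in HB1 and 217 in HB2. The HB libraries agreed closely and both were below both HF libraries. The means were 386.7 ± 70.6 and 216.4 ± 0.97 RPKM (SD, n = 2), and Ftcd fell by 0.82 on the log2 scale (SE 0.27), with a 95% interval of -1.43 to -0.21 and a limma adjusted p of 0.0492. The call was lost without HF1 (adjusted p = 0.143) or HF2 (0.365), when libraries were shifted to a common median (-0.55, adjusted p = 0.188), with the crossed replicate block (0.0540) and without a filter (0.0934), and the adjusted p ran from 0.0305 to 0.365 over 14 alternatives in limma.

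Fpgs lies on the minus strand at chr2:32682609-32704145. Its mRNA level was 185 RPKM in HF1, 126 in HF2, 46.5 in HB1 and 83.2 in HB2. Both HB libraries were below both HF libraries, and HB1, the highest library for Shmt1 and Mthfd1, was the lowest here. The means were 155.6 ± 42.0 and 64.9 ± 25.9 RPKM (SD, n = 2), and Fpgs fell by 1.28 on the log2 scale (SE 0.33), with a 95% interval of -2.03 to -0.53 and a limma adjusted p of 0.0217, the smallest among the members. The call was lost without HF1 (adjusted p = 0.124), without HB1 (-0.87, adjusted p = 0.0512) and at a common median (-1.01, adjusted p = 0.0619), as well as without a filter (0.0885), with a range of 0.00140 to 0.124 over 14 alternatives in limma.

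RNA-seq was made with a kit that does not mark strand. The spans of Smcr8 with Shmt1, of Ndufa4l2 with Shmt2 and of Eng with Fpgs overlap on opposite strands, so their reads cannot be told apart where they meet. The same holds for predicted genes opposite Shmt1 (Gm24945), Mthfd1 (Gm47525, Gm47526 and Gm34868), Aldh1l1 (Gm15756) and Mthfs (Gm38091). No gene overlaps Ftcd.

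Promoters of the 4 members whose mRNA passed the test are shown with that of Shmt2, the partner in the isozyme ratio. They are RefSeq sequences (GRCm38.p6) from 250 bases before to 50 bases after the annotated start, read 5′ to 3′ on the gene's strand. Capitals mark every match, on either strand, to the TATA box of core promoters as TATAAA, to CCAAT of the box that NF-Y binds, to the GC box as GGGCGG, to GCGCATG, the first letters of the palindromic NRF1 motif, or to the E box as CACGTG, and matches of 1 motif can overlap. The windows lie at chr11:60811216-60811515 (Shmt1, minus), chr12:76254982-76255281 (Mthfd1, plus), chr10:76575398-76575697 (Ftcd, plus), chr2:32694126-32694425 (Fpgs, minus) and chr10:127522395-127522694 (Shmt2, minus).
Shmt1: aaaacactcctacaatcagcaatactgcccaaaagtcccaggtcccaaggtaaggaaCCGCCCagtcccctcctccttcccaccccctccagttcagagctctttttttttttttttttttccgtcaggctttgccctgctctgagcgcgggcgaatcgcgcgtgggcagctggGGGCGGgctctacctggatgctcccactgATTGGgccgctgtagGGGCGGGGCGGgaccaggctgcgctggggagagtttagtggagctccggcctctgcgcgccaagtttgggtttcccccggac
Mthfd1: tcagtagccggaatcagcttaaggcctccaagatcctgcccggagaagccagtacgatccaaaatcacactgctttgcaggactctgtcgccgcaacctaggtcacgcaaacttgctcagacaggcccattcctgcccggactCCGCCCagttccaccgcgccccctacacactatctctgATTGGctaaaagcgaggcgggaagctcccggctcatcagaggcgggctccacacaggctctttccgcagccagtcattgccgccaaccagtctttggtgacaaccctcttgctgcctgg
Ftcd: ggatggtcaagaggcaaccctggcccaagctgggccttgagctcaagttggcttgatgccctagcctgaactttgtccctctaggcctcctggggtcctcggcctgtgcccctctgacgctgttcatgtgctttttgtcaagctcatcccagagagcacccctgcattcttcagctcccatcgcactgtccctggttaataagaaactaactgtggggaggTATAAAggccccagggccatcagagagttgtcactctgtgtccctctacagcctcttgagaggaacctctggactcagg
Fpgs: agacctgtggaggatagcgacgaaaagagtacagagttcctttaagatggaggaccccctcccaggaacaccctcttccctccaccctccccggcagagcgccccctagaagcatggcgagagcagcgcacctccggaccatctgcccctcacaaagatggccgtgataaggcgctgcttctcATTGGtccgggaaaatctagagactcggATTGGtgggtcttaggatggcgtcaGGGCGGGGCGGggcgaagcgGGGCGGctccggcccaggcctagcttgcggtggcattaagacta
Shmt2: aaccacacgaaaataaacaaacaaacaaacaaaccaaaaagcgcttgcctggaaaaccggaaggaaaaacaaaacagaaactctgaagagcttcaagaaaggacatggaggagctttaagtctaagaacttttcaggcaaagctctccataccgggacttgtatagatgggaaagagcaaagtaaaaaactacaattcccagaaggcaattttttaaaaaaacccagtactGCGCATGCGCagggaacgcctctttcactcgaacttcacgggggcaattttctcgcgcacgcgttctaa

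Shmt1 and Mthfd1, the members that were higher in HB, each hold CCAAT, on the strand opposite to the one printed (at -47 and -69 from the start), together with at least 1 GC box. Fpgs, which was lower, holds 2 CCAAT boxes and 3 GC boxes, so that these letters do not separate the directions. Ftcd is the only member with TATAAA, at -29, and holds neither CCAAT nor a GC box. Shmt2 holds GCGCATG on both strands, as overlapping matches just before the start, and no other motif searched, and its window has 42.7% G and C, beside a median of 53% over 32544 promoters. Among all 8 members CCAAT occurs in 4 and a GC box in 6, beside 37.4% and 35.9% of all promoters. TATAAA and GCGCATG occur in 1 member each, beside 13.6% and 3.93%. No member holds CACGTG, which 7.17% of all promoters hold. A match is a description of the sequence and says nothing of binding.

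In the footprints no member met the rule of the study for RPFs, a log2 difference beyond 1 with an unadjusted p under 0.05, beside 9.44% of 11190 genes tested. None had an unadjusted p under 0.05, beside 10% of all genes, and limma gave no adjusted p under 0.05 for any gene. The groups did not overlap for Shmt1, higher in HB beside 9.07% of all genes, and for Mthfd1l, lower beside 33.2%. Mthfd1l passed the filter of 1 RPKM only through HF, with means of 3.27 RPKM in HF and 0.537 RPKM in HB. The HB libraries were also the shallowest, so its direction is not read as a result. Shmt1 met the rule without HB2 (1.10) and Fpgs without HB1 (-2.54). The median log2 difference of the 7 tested members was -0.03, and that of all tested genes -0.43. It moved to -0.34 without HF1, -0.89 at a common sum and 0.30 at a common median, with all genes at -1.19 and -0.10 in these scalings.

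Shmt1 had 38.7 and 52.7 RPKM of footprints in HF1 and HF2, and 98.0 and 68.3 RPKM in HB1 and HB2. These rest on 31, 115, 52 and 20 reads, and both HB libraries were above both HF libraries as in mRNA. The log2 difference of 0.84 ± 0.35 had a 95% interval of -0.06 to 1.75 and a limma adjusted p of 0.511. Rescaling every library to a common RPKM sum brought it to -0.02. The entry with the highest footprint RPKM in HB was Mir122, at 418561 RPKM in HB1 and 778452 RPKM in HB2, and its part in this was not tested.

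Shmt2 footprints were nearly level across the libraries, at 38.2 and 51.1 RPKM in HF and 44.0 and 46.0 RPKM in HB, on 34, 124, 26 and 15 reads. The log2 difference was 0.03 with a 95% interval of -0.80 to 0.85 (limma adjusted p = 0.977). Ftcd likewise had 64.7 and 81.0 RPKM of footprints in HF and 58.8 and 85.8 RPKM in HB. Its groups overlapped, and its difference of -0.03 had an interval of -0.89 to 0.84, which includes the size of the fall in its mRNA.

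Mthfd1 footprints stood at 35.7 and 67.5 RPKM in HF1 and HF2 and at 50.3 and 27.6 RPKM in HB1 and HB2, on 46, 237, 43 and 13 reads. The groups overlapped, with HB2 the lowest library, and the log2 difference was -0.39 ± 0.49 (95% interval -1.66 to 0.88, limma adjusted p = 0.780). Leaving out HF2 or HB2 turned it to 0.06 or 0.03.

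Fpgs had 49.0 and 34.3 RPKM of footprints in HF1 and HF2, 36.1 RPKM in HB1 and 6.23 RPKM in HB2, the last on 2 reads only. HB1 lay between the HF libraries, so the groups overlapped and the lower HB mean rests on HB2. The log2 difference was -1.36 ± 0.84, with a 95% interval of -3.53 to 0.82 and a limma adjusted p of 0.621. The HB2 value of 6.23 RPKM has a counting interval of 0.754 to 22.5 RPKM.

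Aldh1l1 had the most footprints of the members, 179 and 305 RPKM in HF1 and HF2 and 279 and 207 RPKM in HB1 and HB2, on 218, 1010, 225 and 92 reads. No shift between the groups was detectable (0.04, 95% interval -0.92 to 1.00, limma adjusted p = 0.972). Mthfd1l had 7, 6, 1 and 0 reads in HF1, HF2, HB1 and HB2, where 3 reads are the limit that a count of 0 allows, and no fold is given. Mthfs had 1 read in all libraries together, which left it out of the test, whereas its copy Mthfsl had 8, 9, 8 and 2 reads.

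**Figure D3:**
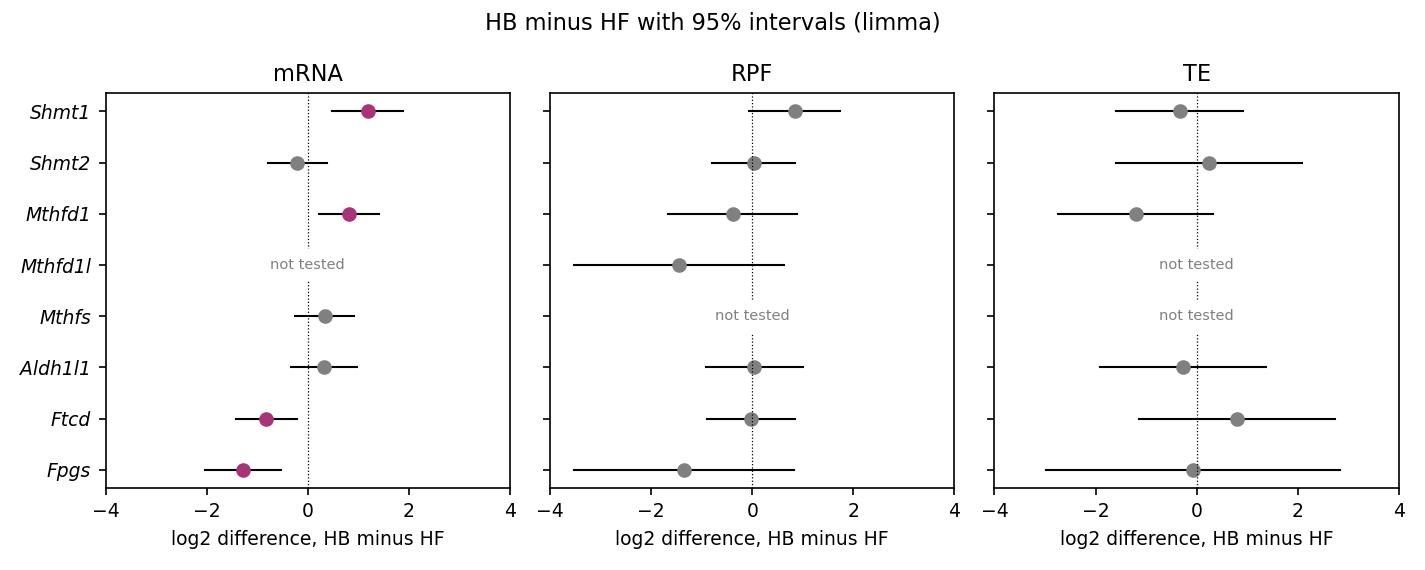
Log2 difference of HB minus HF with its 95% interval from limma, for mRNA, RPF and translation efficiency (TE). Purple points have an adjusted p under 0.05 and grey points do not. In mRNA, Shmt1 (1.18) and Mthfd1 (0.82) lie to the right of 0 and Ftcd (-0.82) and Fpgs (-1.28) to the left, whereas every interval for RPF and TE includes 0.

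Translation efficiency is the ratio of footprint RPKM to mRNA RPKM, here for libraries with the same group and number. Whether 2 such libraries came from 1 animal is not stated in the sources used here. The members differed widely among themselves. In HF, Shmt1 had a TE of 1.36 and 1.82 and Mthfd1 of 0.950 and 1.98, at percentiles 66.0 and 62.0 of 9455 genes. Ftcd had 0.192 and 0.186, Fpgs 0.264 and 0.272 and Shmt2 0.229 and 0.380, at percentiles 6.18, 10.3 and 12.0, and Aldh1l1 stood between, at 0.551 and 1.32 (percentile 42.9). The cytosolic Shmt1 thus had more footprints per mRNA than the mitochondrial Shmt2 in every library of both groups. The percentiles are over all tested genes, whose median TE was 1.07 in HF1 and 1.02 in HF2. Among genes with at least 10 RPKM of mRNA it was lower, 0.673 and 0.661, so the percentiles make these abundant members look more unusual. The footprint RPKM were divided by lengths that exceed the coding length (2065 bases for Shmt1 against 1434 coding bases, 2710 for Ftcd against 1623). How much this moves the value of each gene depends on the region over which RPFs were counted, and was not tested.

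Between the groups, no member met the rule of the study for TE, a log2 difference beyond 2 with an unadjusted p under 0.05, beside 6.09% of all genes, and none had an unadjusted p under 0.05, beside 12.2%. Mthfd1 had a TE of 0.665 and 0.514 in HB1 and HB2, both below the HF values. It was the only tested member lower without overlap, beside 31.9% of all genes. Its log2 difference of -1.20 ± 0.63 had a 95% interval of -2.74 to 0.33 and a limma adjusted p of 0.484. It was -0.68 without HF2, -1.73 without HF1 and -2.01 at a common sum, where it met the rule of the study. Ftcd had 0.273 and 0.395 in HB, both above the HF values, and was the only tested member higher without overlap, beside 13.2%. The difference of 0.80 had an interval of -1.14 to 2.73 (limma adjusted p = 0.704).

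The other tested members overlapped in TE. Shmt1 had 1.08 and 1.42 in HB (-0.34, limma adjusted p = 0.811), Shmt2 0.355 and 0.341 (0.24, adjusted p = 0.917) and Aldh1l1 0.731 and 0.679 (-0.27, adjusted p = 0.889). Fpgs split within HB, at 0.776 in HB1 and 0.0748 in HB2, and its difference of -0.08 became 1.51 without HB2 and -1.67 without HB1. The median over the 6 tested members was -0.18, and over all tested genes -0.35, and at a common sum they were -0.97 and -1.03.

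Summed over all 8 members, the folate enzymes took 0.291% and 0.268% of the mRNA reads in HF and 0.261% and 0.232% in HB. Their share was thus slightly lower in HB without overlap, as were 43.3% of all single genes. Aldh1l1 and Ftcd held 11689 and 10641 of the 33970 member reads in HF1, so the sum mostly follows the abundant members. The median log2 difference of the members in mRNA was 0.31. The ratio of Mthfd1 to Ftcd mRNA was 0.112 and 0.0779 in HF and 0.351 and 0.247 in HB. It sets a member already found higher over a member already found lower, so its separation in mRNA was given beforehand and adds no result. In footprints the share was 0.115% and 0.171% in HF and 0.159% and 0.123% in HB, which overlap. There the ratio of Mthfd1 to Ftcd overlapped as well, at 0.552 and 0.833 in HF and 0.855 and 0.321 in HB.

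The enzymes around these members were taken as lists, chosen with results of these data known. Of 16 other folate enzymes and carriers 11 were tested in mRNA, and 2 met the rule of the study, beside 8.86% of all genes, both carriers and both higher in HB. Slc46a1, the proton-coupled folate transporter, had 7.95 and 7.11 RPKM in HF and 19.1 and 22.3 RPKM in HB (1.34, limma adjusted p = 0.00731). Folr2, a folate receptor that Kupffer cells carry, had 4.52 and 5.40 RPKM in HF and 12.6 and 14.6 RPKM in HB (1.29, limma adjusted p = 0.00826). Both calls were lost without HF1 or HF2, where Slc46a1 differed by 1.41 and 1.27 and Folr2 by 1.19 and 1.40, and without a filter (limma adjusted p = 0.0539 and 0.0550), and that of Folr2 also with voom (1.45). Of 6 Kupffer cell markers 2 were higher in HB at an adjusted p under 0.05, beside 7.92% of all genes, with a summed mRNA level of 102 to 113 RPKM in HF and 110 to 128 RPKM in HB. Their part in the result was not tested. Tyms, which makes thymidylate and is named here after its values were seen, was lower at an adjusted p under 0.05 (-1.10, limma adjusted p = 0.0154). The list's median was -0.22, close to the -0.19 of all genes.

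Glycine cleavage and the use of serine or glycine held 8 tested genes. None met the rule of the study in mRNA, 3 were higher and 1 lower at an adjusted p under 0.05, beside 7.92% and 19.1% of all genes, and the median was 0.52, beside -0.19 over all genes. Gcsh (1.00, limma adjusted p = 0.0172) and Amt (0.93, limma adjusted p = 0.0315) are parts of the mitochondrial glycine cleavage system, whose other parts Gldc (-0.05, limma adjusted p = 0.943) and Dld (0.48, limma adjusted p = 0.355) overlapped between the groups, and Gcat (0.86, limma adjusted p = 0.0370) splits a product of threonine to glycine. Gcsh, Amt, Gldc, Dld and Gcat were also named after their values were seen. Sds, the serine dehydratase that turns serine to pyruvate, fell, with 918 and 735 RPKM in HF and 353 and 388 RPKM in HB (-1.15, limma adjusted p = 0.0171). That call was lost without HF1 (-0.99, adjusted p = 0.168), at a common median (-0.87, adjusted p = 0.0583) and without a filter on low values (adjusted p = 0.0648), and the adjusted p ran from 0.00343 to 0.168 over the alternatives in limma.

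Histidine breakdown feeds Ftcd, and 1 of its 3 genes passed, beside 27% of all genes. Uroc1, urocanase, had 392 and 339 RPKM of mRNA in HF and 172 and 178 RPKM in HB (-1.05, limma adjusted p = 0.0183), the same direction as Ftcd. The call was lost without HF1 (-0.95, adjusted p = 0.169) or HF2 (-1.16, adjusted p = 0.0633), at a common median (-0.78, adjusted p = 0.0679) and without a filter (adjusted p = 0.0575), with a range of 0.00707 to 0.169 over the alternatives in limma. The other two overlapped between the groups, Hal (-0.42, limma adjusted p = 0.410) and Amdhd1 (0.01, limma adjusted p = 0.980). Ftcd, Uroc1 and Sds all had low footprint to mRNA ratios in HF, with Uroc1 at 0.289 and 0.353 and Sds at 0.0627 and 0.0620.

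Purine synthesis uses formyl groups from folate, and Atic, its last formyl transfer, was the 1 of 6 genes that met the rule of the study in mRNA, beside 8.86% of all genes. It had 2.17 and 3.30 RPKM in HF and 12.3 and 7.22 RPKM in HB (1.50, limma adjusted p = 0.00931). It did not meet the rule without HF1 (1.28) or HB1 (1.16), at a common sum (1.47), with voom (1.81) or without a filter (1.50, adjusted p = 0.0649). In TE it met the rule in the other direction, beside 6.09% of all genes (-2.26, limma adjusted p = 0.334), on 4 footprint reads in each HB library, and that call was lost without HF1 (-2.09), HF2 (-2.43) or HB1 (-1.53). Gnmt, which methylates glycine and binds folate, was the 1 of 6 genes of betaine and sarcosine demethylation that met the rule in mRNA, beside the same 8.86%. It had 517 and 342 RPKM in HF and 1792 and 1016 RPKM in HB (1.68, limma adjusted p = 0.0107). It did not meet the rule without HF2 (1.38) or HB1 (1.27), with protein-coding reads (1.65) or without a filter (1.68, adjusted p = 0.0709). Its footprints overlapped, at 625 and 1185 RPKM in HF and 1633 and 732 RPKM in HB.

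Of the 3 serine synthesis genes only Psph was tested. It did not differ detectably in mRNA (-0.05, limma adjusted p = 0.898). For RPFs it met the rule of the study, beside 9.44% of all genes, on 2, 3, 0 and 0 reads, all within the limit that a count of 0 allows. Psph entered that test through its HF reads alone. The call was lost at a common median (-1.49), with the replicate block, with the crossed replicate block and with voom (-0.73).

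**Figure D4:**
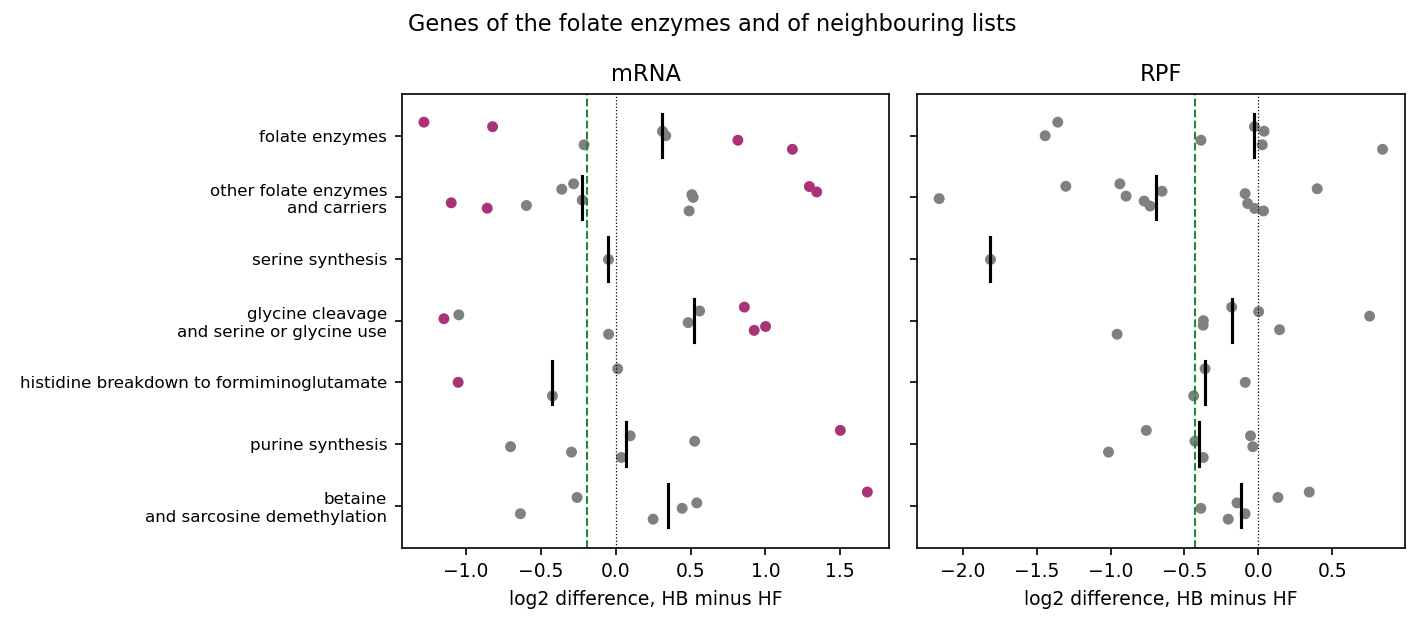
Log2 difference of HB minus HF for every tested gene of the folate enzymes and of the neighbouring lists, in mRNA (left) and RPF (right). Each point is a gene, purple points have an adjusted p under 0.05, black bars are list medians and the green dashed line is the median of all tested genes (-0.19 in mRNA, -0.43 in RPF). Purple points occur in mRNA only.

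The genes whose pattern over the 8 libraries was most like that of Fpgs, the member with the smallest mRNA p, were Smg5 (Pearson r = 0.996), Znrf1 (0.987) and Ddi2 (0.984), among 5288 genes with at least 5 RPKM in both assays. Levels were centred within each assay. In HB2 the footprints rest on 2 reads for Fpgs, 1 for Smg5, 0 for Znrf1 and 10 for Ddi2. How far these low counts shape the r was not tested. This is a description over libraries that share their totals, and with so many genes ranked a high r is reached by some.

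Markers of liver zones and of other cells moved between the groups in part. The pericentral list summed to 3019 and 3129 RPKM of mRNA in HF and to 5366 and 5483 RPKM in HB, with 1 of 5 tested genes lower and none higher at an adjusted p under 0.05, beside 19.1% and 7.92% of all genes. The periportal list summed to 5028 and 3695 RPKM in HF and to 4290 and 4587 RPKM in HB, with 1 of 6 genes lower, beside the same 19.1%. That gene is Sds, already given above among the genes of serine use, and Hal is shared with the histidine list. Stellate cell markers summed to 33.8 and 33.0 RPKM in HF and 70.8 and 42.4 RPKM in HB, with none of 5 tested genes past an adjusted p of 0.05, beside 27% of all genes. Of the 1 tested marker each, a count too small to read against those shares, the adipocyte marker was higher (list sums of 9.63 and 12.1 RPKM in HF, 22.3 and 23.3 RPKM in HB) and the lymphocyte marker lower (5.86 and 8.66 RPKM in HF, 3.18 and 2.87 RPKM in HB). The red blood cell list stood at 675 and 523 RPKM in HF and at 738 and 2249 RPKM in HB, with 3 of 5 genes higher, beside 7.92% of all genes. Endothelial sums overlapped between the groups, with 1 of 5 genes lower, beside 19.1%. Cholangiocyte sums were 26.2 and 31.9 RPKM in HF and 15.7 and 26.0 RPKM in HB, with neither of the tested genes past the threshold, and pancreas acinar mRNA was at or near 0. Their part in the differences of the folate enzymes was not tested.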

How the data were processed

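RNA-seq and Ribo-seq were done on HF and HB livers, 2 libraries each. The authors aligned the reads to mm10 (FANSe2) and deposited 1 RPKM value for each gene in each library; the region over which RPFs were counted is not given in the sources used here. The submitters' notes also name edgeR, which needs counts and was not used. From steps of 1 read between low RPKM values, library totals and whole reads (within 0.02 reads) were recovered for 98.5% of RNA-seq and 98.4% of Ribo-seq values above 0; the member lengths recovered exceed the coding lengths. RNA-seq had 24539 entries, less 4 whose symbol is repeated, and Ribo-seq 25033.

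Genes averaging 1 RPKM or more entered limma 3.58.1 (R 4.3.3) on log2(RPKM + 1), eBayes with trend, two-sided, adjusted over all tested genes by Benjamini-Hochberg. On this scale the change of low genes is understated. For TE the test used the difference of the log2(RPKM + 1) values of RPF and mRNA, and printed TE is the plain ratio. Counting intervals (95%) and floors (3 reads) cover counting error only. The fit was tested on simulated data, in which the same genes changed in both assays by more than any member did. It was therefore no test of TE or of differences of the size seen here.

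The members and the lists were chosen with earlier results of these data known. Named genes were the 8 members, the list genes meeting a call rule of the study or else the list's gene with the highest mRNA mean, and the 3 genes most correlated with the member of smallest mRNA p. The alternatives comprised no filter, a filter at 5 RPKM, a pseudocount of 0.1, common sum, common median, no trend, replicate block, voom, leaving out each library, an interaction model and crossed numbers for TE; scaling to protein-coding reads, a crossed block, Mthfs summed with Mthfsl and an adjusted p without a fold were added after seeing the data. Results for some list genes are not reported here.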

Additional observations from a re-analysis of the deposited data

How the results depend on the processing

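Results of limma on other settings are as follows. The number of members meeting the rule of the study in mRNA was 0, against 1 at a common median (Shmt1), 2 with the replicate block (Shmt1, Fpgs), 2 with the crossed replicate block, 2 at an adjusted p under 0.05 with the same fold and 4 without a fold threshold. It was 0 to 2 when 1 library was left out. In RPF it was 0, against 1 at a common median (Shmt1), 1 with the replicate block and 1 with the crossed block (Fpgs both times), and 0 to 1 without 1 library. In TE it was 0, against 1 without a filter (Mthfd1l) and 1 at a common sum (Mthfd1), and 0 to 0 without 1 pair. The median log2 difference of the members in mRNA (0.31) was 0.59 at a common median and 0.067 (without HF2) to 0.18 without 1 library. In RPF (-0.03) it was -0.89 at a common sum, 0.30 at a common median and -0.34 (without HF1) to 0.13 without 1 library. In TE (-0.18) it was -0.97 at a common sum and -0.33 to 0.15 without 1 pair. Scaling also moved the median of all genes, in mRNA from -0.19 to 0.08 at a common median and -0.22 at a common sum, and in RPF from -0.43 to -0.10 and -1.19, and the mRNA calls over all genes from 246 higher and 701 lower to 540 and 291 at a common median.

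Directions turned as follows. At a common median the mRNA difference of Shmt2 became 0.062 and that of Psph 0.22, and the RPF difference of Ftcd became 0.30 and that of Uroc1 0.24. At a common sum RPF became -0.017 for Shmt1, -0.83 for Shmt2, -0.83 for Aldh1l1, -0.53 for Gnmt and -0.11 for Sds, and TE became -0.57 for Shmt2 and -0.024 for Ftcd. With protein-coding reads RPF became 0.10 for Ftcd and 0.035 for Uroc1, and TE 0.071 for Fpgs. Without 1 library the mRNA of Psph ran from -0.19 to 0.088. RPF ran from -0.18 to 0.23 for Shmt2, -0.84 to 0.062 for Mthfd1, -0.34 to 0.42 for Aldh1l1, -0.29 to 0.24 for Ftcd, -3.28 to 0.67 for Folr2, -0.23 to 0.92 for Gnmt, -1.70 to 0.40 for Slc46a1 and -0.62 to 0.45 for Uroc1. TE ran from -0.12 to 0.60 for Shmt2, -0.90 to 0.35 for Aldh1l1 and -1.67 to 1.51 for Fpgs. The cause was not tested. The mRNA differences of Shmt1, Mthfd1, Ftcd and Fpgs kept their direction under all 14 alternatives, with an adjusted p under 0.05 in 11, 7, 9 and 10 of them; without a filter, which tests 16758 genes, all 4 had an adjusted p of 0.0885 to 0.0937.

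Replicate numbers are shared by the groups, but the deviations of same-numbered HF and HB libraries had correlations across genes of -0.104 in RNA-seq and -0.0138 in Ribo-seq, so no pairing was used. The replicate block moved the calls over all genes from 246 higher and 701 lower to 498 and 1229 in mRNA, from 177 and 879 to 211 and 644 in RPF and from 141 and 435 to 133 and 472 in TE, and the crossed block gave 474 and 1303, 233 and 667, and 145 and 518. Depth limits the footprints: 20 reads lie behind Shmt1, 13 behind Mthfd1 and 2 behind Fpgs in HB2.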
